A study of Mus musculus with 21 samples.

Results

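This account concerns mouse genes of the Zfp series, the symbols given to zinc finger proteins, that carried H3K36me3 over their bodies in undifferentiated myoblasts. Members were chosen by rule from protein-coding RefSeq genes of at least 10 kb whose symbol is Zfp, a number and at most 1 letter. At least 20% of the gene body had to lie inside called peaks in both wild-type libraries of day 0. The rule found 148 of 338 such genes (43.8%). Among other protein-coding genes of at least 10 kb the same cover rule was met by 5427 of 13621 (39.8%), and these are called comparison genes below. Because the day 0 values chose the members, day 0 levels and changes from day 0 are given as description and carry no test. Cover means the percent of a gene body inside merged peaks, and differences are given in points of cover.

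Most Zfp genes encode DNA-binding proteins with arrays of C2H2 zinc fingers, and many of these also hold a KRAB domain, which recruits the corepressor TRIM28 and the H3K9 methyltransferase SETDB1 to silence transposable elements and imprinted loci. KRAB zinc finger genes multiplied by tandem duplication and lie in clusters of near-identical copies, mainly on a few chromosomes. Other genes with a Zfp symbol code for RNA-binding proteins, ubiquitin ligases or ribosome biogenesis factors that share only the finger fold. H3K36me3 is laid down by SETD2, which travels with elongating RNA polymerase II, so the mark normally lies over the bodies of transcribed genes and grows towards their 3′ ends. Its methyl groups come from S-adenosylmethionine, which cells make from methionine.

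The data are peak lists from chromatin immunoprecipitation sequencing of H3K36me3 in C2C12, a mouse myoblast line that fuses into myotubes when it differentiates. The 10 wild-type (WT) libraries form 5 pairs of replicates: 1 pair at day 0, and at days 1 and 5 a pair from control medium (CTL) and a pair from cells restricted in methionine (MR). For the Setd2 knockout lines KO_1 and KO_2 there was a single library in each of these conditions, so differences between WT and KO have no replicate check within a line. The names of the peaks instead number the KO libraries as replicates of 1 group, and the labels were followed. How the lines were made is not given in the sources used here. No source used here says whether replicates came from separate cultures, so p-values measure the spread between these samples, which may be technical.

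Lists of WT libraries covered 110 to 183 Mb, and restricted libraries covered less than their controls, 110 and 128 Mb against 140 and 150 Mb at day 1, and 131 and 134 Mb against 171 and 183 Mb at day 5. Read depth is unknown, and lists of KO_1 covered 0.307 to 74.1 Mb. Of 8 myotube marker genes, all 8 were marked (cover of at least 50%) in WT at day 5 in control medium, 3 at day 5 under restriction and 1 at day 0. At day 5 their summed cover was 703 and 725 in control libraries and 294 and 323 in restricted ones. Of 4 myoblast markers, 3 were marked at day 0 and in control medium on both later days, and 1 under restriction on each of them. All 4 proliferation markers were marked at day 0 and in the day 1 controls, 3 in restricted cells of day 1, 2 in the day 5 controls and 0 in restricted cells of day 5. None of 4 adipocyte, 3 satellite cell or 3 osteoblast markers was marked in a WT group. In bulk chromatin, fewer cells with the mark on a gene and less mark per cell cannot be told apart.

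Promoters of members were almost free of peaks. RefSeq promoter windows of GRCm38.p6, from 250 bases before to 50 bases after an annotated start, were matched for 124 of the 148 members. The window nearest to the 5′ end of the gene body was taken. Its start need not be that end, so a printed window can lie inside the body. In the 10 WT libraries, 0 to 3 of these 124 windows touched a peak, and in the comparison genes 29 to 79 of 4407 did. The windows of 4 members on which the results below turn are printed 5′ to 3′ on the coding strand. Zfp61 and Zfp367 had lower cover at day 5 than at day 1 in control medium, and Zfp664 had the greatest difference under restriction. Zfp330 kept peaks in KO_1 in all conditions but restriction at day 1, where little was left. Capitals mark matches on either strand to an E2F-type motif (TTTGGCGC, TTTCGCGC, TTTGCCGC or TTTCCCGC), a GC box (GGGCGG) or a CCAAT box (CCAAT).
Zfp61, chr7:24299500-24299799, minus strand: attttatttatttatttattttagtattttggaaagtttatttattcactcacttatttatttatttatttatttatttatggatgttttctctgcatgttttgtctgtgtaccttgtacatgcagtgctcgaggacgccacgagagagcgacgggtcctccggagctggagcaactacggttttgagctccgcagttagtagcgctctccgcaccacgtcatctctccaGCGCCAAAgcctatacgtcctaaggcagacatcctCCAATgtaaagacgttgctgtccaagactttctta
Zfp367, chr13:64153150-64153449, minus strand: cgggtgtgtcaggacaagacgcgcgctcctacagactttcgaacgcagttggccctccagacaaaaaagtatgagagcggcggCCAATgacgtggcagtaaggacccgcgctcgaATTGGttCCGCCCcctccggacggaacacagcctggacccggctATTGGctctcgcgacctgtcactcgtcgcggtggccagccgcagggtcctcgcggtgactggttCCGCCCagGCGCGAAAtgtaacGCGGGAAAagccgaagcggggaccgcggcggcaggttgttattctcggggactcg
Zfp664, chr5:124862455-124862754, plus strand: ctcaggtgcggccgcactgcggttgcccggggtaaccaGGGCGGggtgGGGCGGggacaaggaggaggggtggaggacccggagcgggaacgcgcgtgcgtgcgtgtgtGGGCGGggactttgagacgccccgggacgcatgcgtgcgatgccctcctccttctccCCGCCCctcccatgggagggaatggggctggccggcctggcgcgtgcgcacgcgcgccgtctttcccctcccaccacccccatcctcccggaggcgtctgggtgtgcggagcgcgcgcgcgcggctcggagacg
Zfp330, chr8:82774096-82774395, minus strand: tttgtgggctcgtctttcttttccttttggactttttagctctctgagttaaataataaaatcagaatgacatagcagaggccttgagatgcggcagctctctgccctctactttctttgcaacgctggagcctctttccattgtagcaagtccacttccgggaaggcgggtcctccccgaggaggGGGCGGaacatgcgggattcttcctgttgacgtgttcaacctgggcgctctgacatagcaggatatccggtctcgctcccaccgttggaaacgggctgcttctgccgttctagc
Zfp367 held 2 E2F-type matches, 2 GC boxes and 3 CCAAT boxes, Zfp664 held 4 GC boxes, and Zfp61 held 1 E2F-type match and 1 CCAAT box. Zfp330 held 1 GC box. The unprinted windows of Zfp184 and Zfp846, which were also lower at day 5 in control medium, and of Zfp260 held 0 matches to these motifs. Over the 124 member windows, an E2F-type match stood in 7 (5.65%), a GC box in 54.0% and a CCAAT box in 49.2%. Over 15327 windows of protein-coding genes of at least 2 kb the shares were 3.18%, 51.2% and 38.9%. The median number of CG pairs was 16 in both sets. A match is a description of letters and not a site.

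Across the 10 WT libraries the members spanned nearly the whole scale of cover. The median member had 57.4% and 51.5% of its body inside peaks in the 2 libraries of day 0, 46.8% and 50.2% in the day 1 controls, and 44.8% and 37.0% in restricted libraries of day 1. The day 5 medians were 57.5% and 54.5% in control libraries and 47.6% and 47.5% in restricted ones. Medians of the comparison genes were higher in all 10 WT libraries, at 68.05% and 61.4% at day 0 and 47.9% and 49.0% at day 5 under restriction. At a cover of at least 50%, 35 members were marked in all 10 WT libraries, 42 in none and 71 in some only. Members were also shorter than comparison genes, with a median length of 19.1 kb against 29.0 kb.

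**Figure D1:**
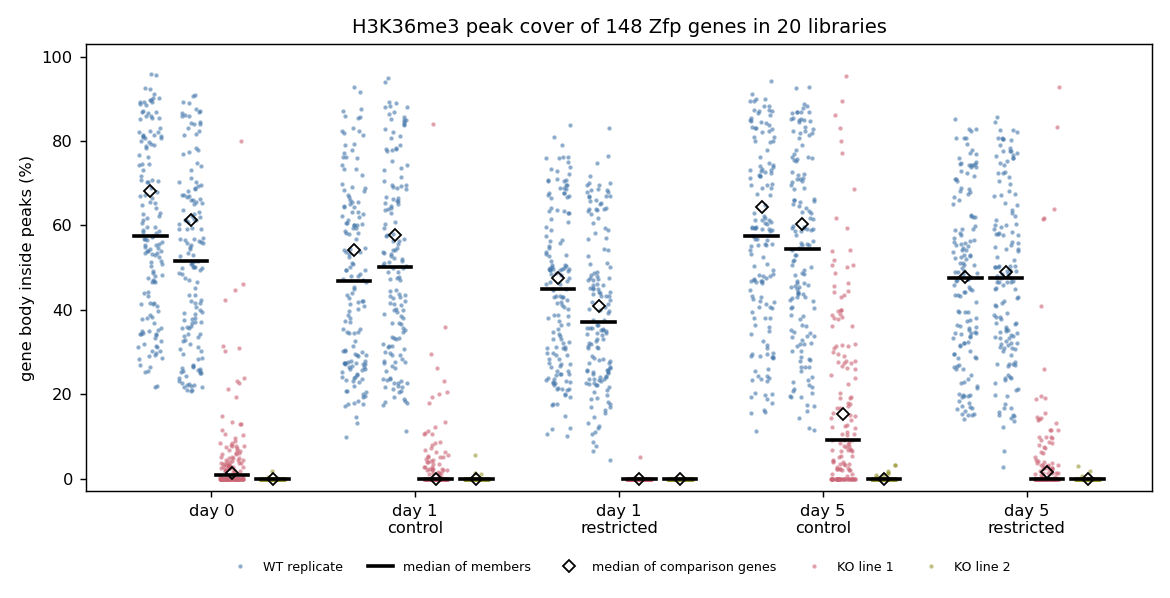
Percent of the gene body inside peaks (vertical axis) for each of the 148 Zfp genes in all 20 libraries, grouped by condition, with 1 point per gene. Black lines are the median of the members and open diamonds the median of the comparison genes; WT points spread widely in every condition, from about 20% up at day 0 by the selection rule, while KO_2 points lie at or near 0.

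The 5 members with the highest mean over the 8 WT libraries of days 1 and 5 were Zfp335, Zfp207, Zfp346, Zfp740 and Zfp687. Zfp335, a transcription factor of neural progenitors, was the steadiest, between 83.2% and 86.2% in all 8 libraries. Zfp207, a spindle assembly factor that binds microtubules, had 92.7% and 95.0% at day 1 in control medium, 67.6% and 70.0% at day 1 under restriction, 94.3% and 92.8% in the day 5 controls and 77.2% and 79.0% in the restricted libraries of that day. Zfp687 shares 59.6% of its body with other genes, among them Pi4kb, so its peaks can belong to a neighbour. In all, 53 members overlapped another gene and 17 did so over more than 20% of their length.

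At the other end of the range lay Zfp444, Zfp235, Zfp219, Zfp248 and Zfp169. Zfp444 had 34.3% and 48.8% at day 0 but 10.6% to 20.7% in the 8 later libraries. Zfp219 had 34.2% and 39.3% at day 0 and 6.53% to 24.6% afterwards, and 33.9% of its body overlaps Arhgef40 and Tmem253. Members just inside the threshold were Zfp638, Zfp607a and Zfp74, with 20.7%, 21.1% and 21.1% in the lower day 0 library. Just outside were Zfp54, Zfp69 and Zfp518b with 19.9%, 19.6% and 19.4%. Of the 190 Zfp genes of at least 10 kb that are no members, 71 were listed at 0 in all 10 WT libraries.

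Members of known function lay across this range. Zfp809, a KRAB protein that silences murine retroviruses, had 61.2% and 63.6% at day 0 and 37.6% to 51.5% in the 8 later libraries. Zfp445, a KRAB protein that maintains imprints, had 25% to 36.3% in those libraries. Zfp462 and Zfp644, both linked to the H3K9 methyltransferases G9a and GLP, had 19.5% to 29.5% and 10.5% to 41.9%. Zfp143, an activator that binds promoters of housekeeping genes, had 66.0% to 87.0%. Zfp410, an activator of the Chd4 gene, had 63.4% to 80.1%, and Zfp598, a ubiquitin ligase that senses collided ribosomes, had 46.2% to 60.03%.

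The comparison of restricted with control medium asks where the mark was placed when methionine is scarce. At day 1, 37 of the 148 members had lower cover under restriction (25%) and 2 had higher cover, by limma with Benjamini-Hochberg adjustment over 9397 tested genes. Over all tested genes 38.7% were lower and 3.51% higher. At day 5, 42 members were lower (28.4%) and 6 higher, against 44.4% and 5.16% of all tested genes. All 148 members entered these tests. Median differences were -6.08 points at day 1 and -7.40 at day 5 for members, -7.89 and -8.66 for comparison genes, and -8.06 and -9.39 for all tested genes. With 1 of the compared libraries left out, the member median ranged from -8.62 to -3.74 points at day 1 and from -8.55 to -5.49 at day 5.

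These directions depend on how the shorter restricted lists are treated. Whether the spike-in entered the authors' peak calls is not given in the sources used here, so the length of a list cannot be read as the amount of the mark. With each library centred on its median gene, 63 members had higher cover under restriction at day 1 and 6 lower, where 41.4% and 14.3% of all tested genes did. The day 5 counts were 75 and 5, against 42.6% and 16.3% of all tested genes, whose median difference became 7.23 at day 1 and 7.40 at day 5. With WT lists shortened to equal covered length, the counts of members with higher and lower cover were 7 and 14 on the first of these days and 22 and 16 on the other. Of all tested genes 10.6% were then higher and 21.6% lower on the first day and 18.1% and 21.9% on the other, with medians of -3.37 and -0.91. Relative to all tested genes, the median member stood 1.982 points higher at day 1 and 1.996 higher at day 5 as deposited, and 2.03 and 1.40 points higher with lists of equal length. With no filter on mean cover, which adds genes of little cover to the background, the sign turned and the median member stood at -1.21 and -1.18 points. Against the comparison genes it did not turn: the median member stood 1.80 and 1.24 points higher without the filter, and 1.81 and 1.26 as deposited. At day 1 the gap was 0.885 points without the first control library and 3.56 without the second, and with peaks limited to a −log10 q of at least 3 it was 4.602 and 3.78 points at the 2 days. Myotube, myoblast and proliferation markers moved with this comparison, as given above, and their part in it was not tested.

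Zfp568 showed the greatest difference at day 1. The gene, at chr7:29983955-30028282, encodes a KRAB protein that represses a placental transcript of Igf2. Its cover was 85.9% and 88.2% in control medium and 48.7% and 43.9% under restriction, and at day 5 it was 88.3% in both control libraries and 52.1% and 57.8% under restriction. Control and restricted libraries did not overlap on either day. The differences were -40.8 points (SE 3.44, adjusted p = 0.000149, limma) and -33.3 points (SE 3.44, adjusted p = 0.000221), and both calls held under all 16 alternatives that were run, with lists centred or of equal length among them.

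Zfp260, a cardiac transcription factor gene in the same cluster at chr7:30094782-30107622, had 71.9% and 77.8% in control medium at day 1 and 33.7% and 43.4% under restriction. Its difference was -36.3 points (SE 4.37, adjusted p = 0.000639, limma), and at day 5 it was -26.7 points (SE 4.37, adjusted p = 0.00188). Zfp622, which encodes a factor for maturation of the large ribosomal subunit, had 79.2% and 84.9% against 61.6% and 45.9% at day 1. That difference of -28.3 points (SE 6.43, adjusted p = 0.0102, limma) was no longer called without the second control or the second restricted library of day 1, nor with centred or equal-length lists. Zfp871, Zfp653 and Zfp266 were lower by 26.7 to 27.2 points at day 1 as deposited, with no overlap between media. Of these, Zfp871 and Zfp653 lost the call in centred and in equal-length lists, and all 3 lost it among peaks with a −log10 q of at least 3.

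At day 5, Zfp664 had the greatest difference of all members. The gene lies at chr5:124862705-124888630, and its promoter window, shown above, holds 4 GC boxes. Its cover was 61.7% and 68.5% in control medium and 18.3% and 14.3% under restriction, while at day 1 it was 35.4% and 50.4% against 21.2% and 22.2%. The libraries of the 2 media did not overlap. The day 5 difference was -48.8 points (SE 5.37, adjusted p = 0.000295, limma), but with lists of equal length it was -3.41 points (adjusted p = 0.556, limma), and the call was also lost among peaks with a −log10 q of at least 3. Zfp516, a regulator of brown fat genes, had 61.3% and 53.0% against 22.9% and 23.9% at day 5. Its difference of -33.8 points (SE 4.49, adjusted p = 0.000708, limma) kept its call in all 16 alternatives.

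The remaining named members with lower cover at day 5 were Zfp706, Zfp672 and Zfp322a, by 28.5 to 29.2 points. Zfp706 and Zfp322a lost their calls with libraries centred (adjusted p = 0.0592 and 0.0974, limma). Zfp672 had 55.4% and 50.7% in control medium and 19.4% and 29.3% under restriction as deposited, a difference of -28.7 points (adjusted p = 0.00127, limma). In lists of equal length this reversed to 19.2 points (adjusted p = 0.0192, limma), and the call was also lost among peaks with a −log10 q of at least 3. All of the body of Zfp322a overlaps the gene 4930586N03Rik. Of 4 further members, chosen after their values were seen, Zfp292, Zfp106 and Zfp644 were lower under restriction by 24.9, 21.6 and 21.3 points (adjusted p = 0.000715, 0.0061 and 0.00283, limma), whereas Zfp335 had -0.43 points (adjusted p = 0.877). Each of the 3 lost its call under 1 or more of the scalings: Zfp292 in lists of equal length, Zfp106 with libraries centred, and Zfp644 in both, turning to 3.16 points in lists of equal length. Among peaks with a −log10 q of at least 3, Zfp106 and Zfp644 were not called either.

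Few members had higher cover under restriction. At day 1, Zfp101 had 26.0% and 21.8% in control medium and 41.5% and 42.3% under restriction, a difference of 18 points (SE 3.81, adjusted p = 0.00748, limma), and the call was lost only among peaks with a −log10 q of at least 3. Zfp958 was called as well, at 13.2 points (adjusted p = 0.0481, limma), but lost its call in 13 of 16 alternatives. At day 5, Zfp61 had 18.7% and 19.5% in control medium and 49.0% and 33.9% under restriction, a difference of 22.3 points (SE 5.81, adjusted p = 0.0148, limma). Leaving out either control library or the first restricted library of day 5 ended that call, as did limiting peaks to a −log10 q of at least 3. Zfp846, with 15.7% and 11.6% against 29.6% and 30.3%, differed by 16.3 points (SE 3.27, adjusted p = 0.00463, limma) and kept its call in all 16 alternatives. Zfp280c, Zfp229, Zfp11 and Zfp317 were higher by 9.05 to 21.6 points and each lost its call in 5 to 11 of the 16.

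Calls of the 2 days overlapped in part. Of the members with lower cover, 21 were lower at both days, which is 56.8% of the day 1 list and 50% of the day 5 list, and 82 members were called at neither day. Across the 148 members the differences of day 1 and day 5 had a Pearson correlation of 0.64, and across all tested genes it was 0.68. Genes are not independent replicates, and each day's points share 4 libraries. In the test of the difference between days itself, none of the 148 members was called by limma, 18 had an unadjusted p under 0.05, and 6.93% of all tested genes were called.

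**Figure D2:**
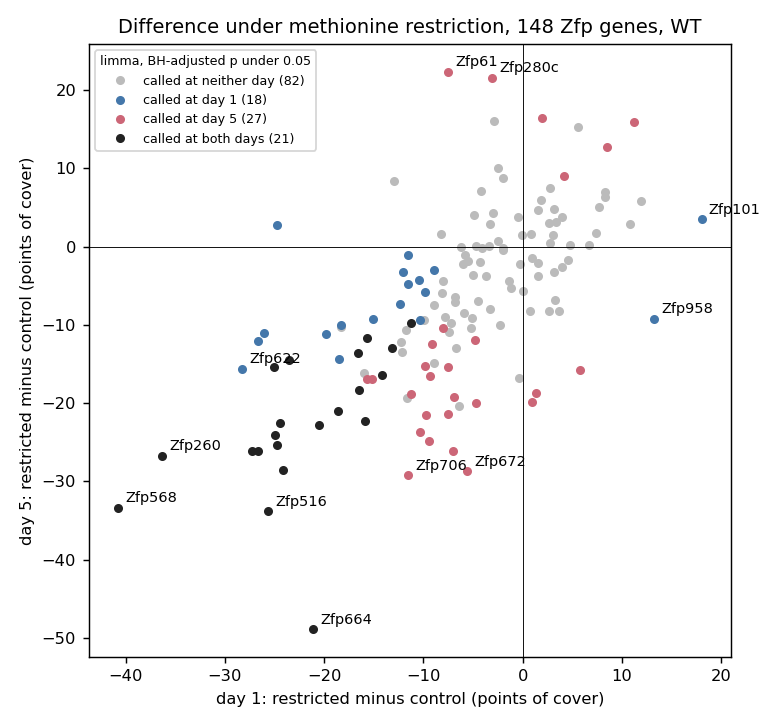
Difference in cover between restricted and control medium in WT cells, in points of cover, at day 1 (horizontal) and day 5 (vertical), with 1 point per member and colours for the limma calls. Most called genes lie at the lower left, with Zfp568, Zfp260, Zfp516 and Zfp664 farthest out, and Zfp61 and Zfp280c lie above 0 at day 5.

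From day 1 to day 5 in control medium, while the line differentiates, 20 members had higher cover and 5 lower, by limma. Over all tested genes 21.5% were higher and 7.11% lower. In lists of equal length the balance turned, to 6 members higher and 12 lower, against 8.48% and 13.5% of all tested genes. With libraries centred 14 members were higher and 9 lower, against 13.4% and 14.9%. The median member differed by 5.13 points and the median tested gene by 4.09. With 1 control library left out, the median member differed by 3.16 to 6.57 points and the median tested gene by 2.89 to 5.21. Without the first control library of day 1 the 2 medians were 3.16 and 3.14. With each library centred, the median tested gene moved to -1.99, so the general direction of this comparison depends on the scaling. Marked myotube markers numbered 3 at day 1 and 8 at day 5, and marked proliferation markers 4 and 2, and their part in the members' differences was not tested. This comparison shares its control libraries with the 2 above, and the values are set side by side only.

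Higher at day 5 were Zfp30, Zfp275, Zfp810, Zfp318, Zfp697 and Zfp672. Zfp30, at chr7:29783968-29794703, had 28.0% and 23.6% at day 1 and 55.6% and 56.2% at day 5. The difference of 30.1 points (SE 4.92, adjusted p = 0.00356, limma) kept its call in all 16 alternatives. Under restriction Zfp30 had 21.3% and 7.77% at day 1 and 39.6% and 34.5% at day 5. Zfp810 had 54.2% and 54.6% at day 1 and 76.3% and 82.9% at day 5 (25.2 points, SE 5.17, adjusted p = 0.00923, limma), and lost its call only without the second control library of day 5. Zfp275 and Zfp697 had 27.4% and 29.9%, and 20.1% and 20.8%, at day 1, and 55.4% and 59.3%, and 43.2% and 45.5%, at day 5. Neither kept its call in lists of equal length, and that of Zfp275 was also lost among peaks with a −log10 q of at least 3. Zfp318 (25.1 points, adjusted p = 0.023, limma) lost its call without any 1 of the 4 control libraries, in lists of equal length and among peaks with a −log10 q of at least 3. Zfp672 lost its call among those peaks and reversed in lists of equal length, to -10.5 points (adjusted p = 0.168, limma).

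All 5 members lower at day 5 can be named. Zfp61, with 53.7% and 44.5% at day 1 and 18.7% and 19.5% at day 5, differed by -30.0 points (SE 5.81, adjusted p = 0.00735, limma). The call was lost without the first control library of day 1 or of day 5 and, with a difference of -6.09 points (adjusted p = 0.563, limma), among peaks with a −log10 q of at least 3. Of the body of Zfp61, 16.7% overlaps Zfp94. Zfp41 had 68.3% and 63.7% against 46.7% and 42.1%, a difference of -21.6 points (adjusted p = 0.00878, limma). That call was lost with gaps filled, without the first control library of day 1 and without the second of day 5.

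Zfp367 had 45.3% and 47.2% at day 1 and 28.8% and 25.5% at day 5. Its difference was -19.1 points (SE 4.19, adjusted p = 0.0123, limma), the levels did not overlap, and under restriction at day 5 they were 16.01% and 6.63%. Zfp367 lost its call without the second control library of day 1 or of day 5. Zfp184 and Zfp846 differed by -20.2 and -10.6 points (adjusted p = 0.0341 and 0.0445, limma). Those calls were lost in 8 and 11 of 16 alternatives.

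Cover was uneven along member genes. With strand from RefSeq for 124 members, each body was divided into 10 equal bins from the 5′ to the 3′ end. At day 5 in control medium, mean cover was 8.18% ± 0.083 in bin 1, 77.3% ± 2.73 in bin 8 and 59.4% ± 0.339 in bin 10 (SD over libraries, n = 2). With the body divided into 3 equal segments, the 3′ segment exceeded the 5′ segment in 111 of 124 members (89.5%) and in 93.1% of 4407 comparison genes. Members differed most from the comparison set at the 3′ end, where bin 10 of the comparison genes held 73.9% ± 1.25. Bin 10 lay below bin 8 in 64.5% of members and 50.5% of comparison genes.

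The 5′ part held most of the difference under restriction. In bin 2 the member mean was 28.9% ± 1.17 in control medium and 14.6% ± 3.13 under restriction at day 1, and 36.6% ± 0.338 and 18.1% ± 0.944 at day 5 (SD, n = 2). In bin 8 it was 72.1% ± 3.33 and 68.2% ± 2.88 at day 1, and 77.3% ± 2.73 and 73.2% ± 0.511 at day 5. The libraries of the 2 media thus lay well apart in bin 2 and close together in bin 8. Over all 124 members the 5′ segment had 26.3% ± 1.63 in control medium and 15.5% ± 2.39 under restriction at day 1, and 32.7% ± 0.869 and 19.8% ± 0.233 at day 5. The 3′ segment had 64.9% ± 3.84 and 61.4% ± 2.63 at day 1, and 69.9% ± 1.26 and 67.4% ± 0.413 at day 5. In the comparison genes the 5′ segment had 30.9% ± 1.74 and 20.1% ± 2.65 at day 1, and the 3′ segment 73.4% ± 1.81 and 64.9% ± 4.604. Their 5′ segment had 36.2% ± 2.33 and 21.9% ± 0.424 at day 5, and their 3′ segment 74.5% ± 1.395 and 69.1% ± 0.592. Bin 2 of these genes had 31.6% ± 2.16 and 17.99% ± 2.78 at day 1, and 38.3% ± 2.72 and 20.2% ± 0.528 at day 5. The greater 5′ difference was thus not particular to the members. These means have no filter and no test.

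Zfp12 is an example chosen after its values were seen, with limma run on segments, a test added after the data were seen. In its 5′ segment, cover was 48.2% and 48.5% in control medium at day 1 and 2.17% and 3.44% under restriction, a difference of -45.6 points (adjusted p = 0.00273, limma). At day 5 the 5′ segment had 61.6% and 44.2% against 23.1% and 11.2% (-35.7 points, adjusted p = 0.00428, limma). In the 3′ segment the same gene had 99.2% and 100% against 90.5% and 100% at day 1. The gap between the segments was 41.2 points wider under restriction at day 1 (adjusted p = 0.0155, limma). With the 3′ segment near 100%, this gap largely repeats the 5′ difference. At day 1 such a gap was called wider in 6 of 91 tested members and narrower in 0, against 350 and 220 of 4853 tested genes. At day 5 the members numbered 19 and 1, against 1109 and 261 of those genes. The 5′ segment was lower at day 1 in 27 of 95 members and higher in 0, against 1544 and 61 of 5115 genes. Zfp653, also chosen after its values were seen, had 63.7% and 62.7% in its 3′ segment in control medium at day 1 and 15.5% and 11% under restriction (adjusted p = 0.00295, limma). The change of its gap between segments, -31.0 points, was not called (adjusted p = 0.0707, limma).

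**Figure D3:**
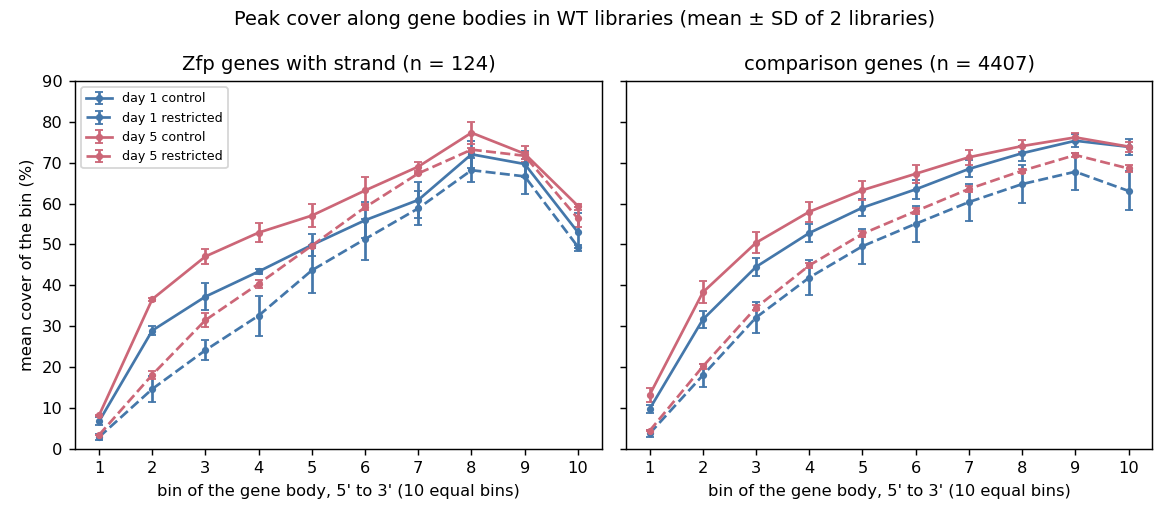
Mean percent of each of 10 equal bins of the gene body inside peaks, from the 5′ to the 3′ end, in WT libraries of days 1 and 5, for 124 Zfp genes with a known strand (left) and 4407 comparison genes (right). Points are means of 2 libraries and bars their SD; dashed restricted lines run below solid control lines in all 10 bins of both panels, and in the Zfp genes the lines lie farther apart in bin 2 than in bin 8 and bin 10 lies below bin 8.

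Zfp genes were grouped into clusters where neighbours with the symbol pattern lay within 500 kb of each other and at least 3 stood together. This gave 34 clusters with 81 members in 26 of them, and 67 members outside. Of long Zfp genes inside clusters 39.7% were members, and of those outside 50%. Copies within a cluster can share sequence, and where reads fit several copies the peak caller's treatment of them is not known, so cover of near-identical copies is uncertain. Members inside clusters had a median difference under restriction of -5.04 points at day 1 and -3.74 at day 5, and members outside had -7.55 and -9.81. Median lengths of these sets differ too, at 16.1 kb and 25.9 kb, and the difference between them was not tested.

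Most members of a single cluster were found at chr7:29768552-30169775, where 10 of 13 long genes belong to the set. They are Zfp84, Zfp30, Zfp790, Zfp27, Zfp74, Zfp568, Zfp82, Zfp566, Zfp260 and Zfp382. Of these 10, 4 had lower cover under restriction at day 1 and 7 at day 5, and 2 were higher at day 5 than at day 1 in control medium. The shares of all tested genes called in these directions were 38.7%, 44.4% and 21.5%. The 7 lower at day 5 became 1 lower and 2 higher with libraries centred, 4 lower and 1 higher in lists of equal length, and 3 lower among peaks with a −log10 q of at least 3, with gaps filled or without the first control library of day 5, and 4 lower without either restricted library of that day. At day 1 the 4 lower became 2 lower and 1 higher with libraries centred and 2 lower in lists of equal length. At day 5, median cover of the 10 was 65.9% and 61.3% in control libraries and 47.2% and 49.0% in restricted ones. Zfp74, in the middle of the cluster, had 40.7% and 33.7% against 32.1% and 30.9%, a difference of -5.71 points that was not called (adjusted p = 0.296, limma). Neighbouring Zfp568 and Zfp82 were lower by 33.3 and 22.5 points on that day (adjusted p = 0.000221 and 0.012, limma).

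Calls in the other clusters with 5 or more members are read against the 38.7% of all tested genes that were lower at day 1 and the 44.4% at day 5, and such small counts show no difference from those shares by themselves. At chr17:21008941-23599755, 6 of 22 long genes were members (Zfp160, Zfp51, Zfp53, Zfp52, Zfp948 and Zfp229), and at day 5 Zfp52 was lower and Zfp229 higher. At chr6:47815536-48621548, 5 of 9 were members, with a median difference of -0.28 points at day 1 and -2.17 at day 5, and 1 of the 5 was called lower at day 1. At chr17:32765496-33631716, 5 of 12 were members, and it held both Zfp871, lower under restriction at day 1, and Zfp101, higher. The 16 long Zfp genes at chr4:145510759-147849126 held no member, and their median cover over the 8 WT libraries was 0. At chr13:66670274-67827000, 3 of 23 were members.

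**Figure D4:**
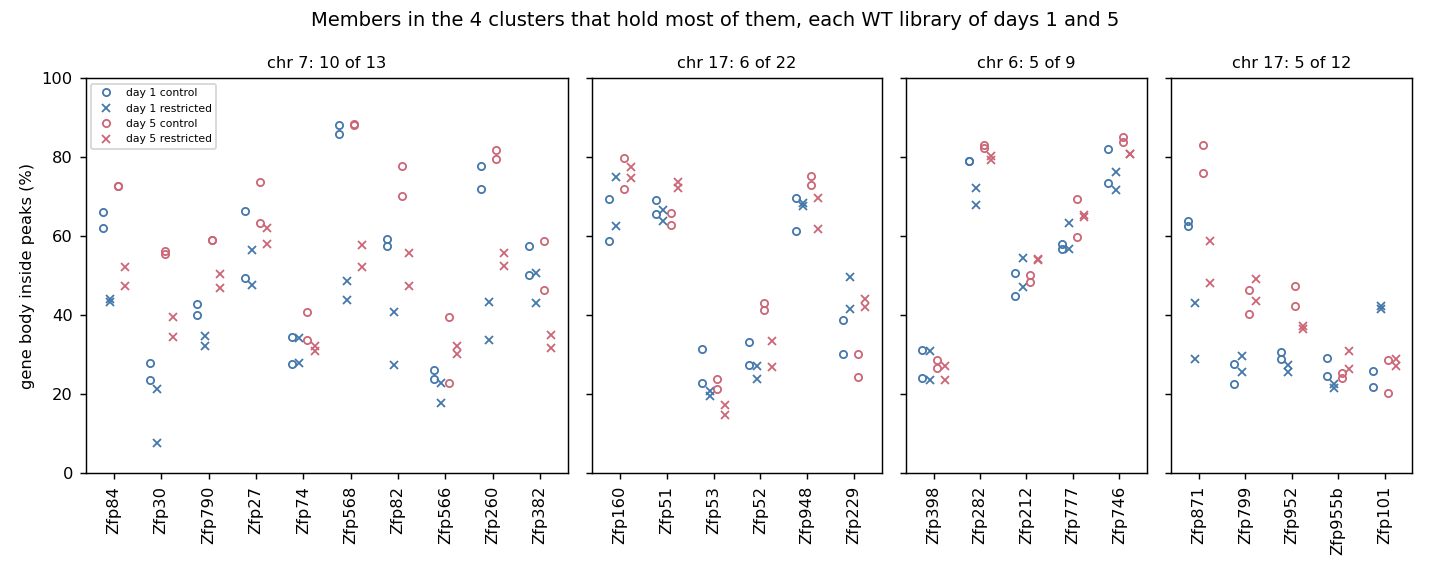
Percent of the gene body inside peaks for members of 4 clusters, in genomic order, with both libraries of each WT group of days 1 and 5 as separate points (circles control, crosses restricted). Panel titles give the chromosome and how many of the long Zfp genes are members; restricted points lie below control points for Zfp84, Zfp568, Zfp82 and Zfp260 on both days.

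Genes of the KRAB silencing machinery were described beside the members. The list of 26 corepressors, chromatin readers and methyltransferases also held Setd2, the gene knocked out in the KO lines. Of the 26, 25 entered the test. Under restriction 11 of the 25, Setd2 among them, were lower at day 1 by limma, at an adjusted p under 0.05. At day 5, 12 were lower, again with Setd2, and 1 was higher. These shares of the 25 lie near those of all tested genes, of which 38.7% and 44.4% were lower. Trim28, the corepressor of KRAB proteins, had 84.6% and 77.7% against 53.2% and 53.8% at day 1 and differed by -27.6 points (adjusted p = 0.00151, limma). Setdb1, its partner methyltransferase, had 83.2% and 88.0% against 84.5% and 75.1%, which overlap, and differed by -5.83 points (adjusted p = 0.28, limma). The gene that was higher at day 5 was Suv39h1, an H3K9 methyltransferase, with 20.4% and 16.1% in control medium and 55.4% and 45.2% under restriction (32.1 points, adjusted p = 0.0102, limma). With libraries centred, 10 of these genes were higher and 5 lower at day 1, against 41.4% and 14.3% of all tested genes.

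Peaks over the members were nearly absent in KO_2. Any cover at all was listed for 13 of 148 members, at most 5.68% (Zfp322a, day 1 in control medium). In single KO_2 lists 93.9% to 100% of members and 84.7% to 99.7% of comparison genes were at 0. These lists covered 0.00821 to 7.13 Mb. Every member lay below both WT libraries in each condition of days 1 and 5. Of all tested genes, 97.6% and 98.1% did so in control medium at days 1 and 5, and 90.8% and 93.2% under restriction. Of the comparison genes, 99.9% and 99.2% did so in control medium, and 99.5% and 98.7% under restriction. In KO_1, 114 members had some cover in at least 1 library, and how much depended on the condition. In single KO_1 lists 25% to 99.3% of members and 17.4% to 96.4% of comparison genes were at 0. Mean cover of members in KO_1 as a percent of WT was 9.08 at day 0, 6.65 at day 1 in control medium, 0.0819 at day 1 under restriction, 33.9 at day 5 in control medium and 11.04 at day 5 under restriction. For comparison genes the figures were 11.4, 8.49, 0.193, 42.9 and 22.3. Its restricted day 1 list held only 791 peaks, and its mean cover over the members was 6.45% with that library and 8.05% without it.

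Within KO_1, 111 members had more cover at day 5 in control medium than at day 0 and 3 had less, where 70% of all tested genes had more and 4.24% less. At day 5, 111 had less cover under restriction than in control medium and none had more, where 67.6% of all tested genes had less and 5.73% more. These are counts from 1 library each, without a test. They are given beside the same shares of all genes as a description, and the covered length of the day 5 lists was 74.1 Mb in control medium and 45.8 Mb under restriction. At day 1, 147 of 148 members lay below both WT libraries in control medium, all but Zfp330, and all 148 did under restriction. Of all tested genes 97.1% and 90.8% did, and of the comparison genes 99.6% and 99.5%. Below both WT libraries at day 5 in control medium were 143 of 148 members, 89.9% of all tested genes and 92.4% of the comparison genes. The 5 other members were Zfp958, Zfp330, Zfp867, Zfp622 and Zfp52. Under restriction at day 5 the count was 145 of 148, against 83.7% of all tested genes and 89.9% of the comparison genes. The other members were Zfp330, Zfp622 and Zfp706.

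Zfp330, which encodes a nucleolar protein and lies at chr8:82763618-82774145, was the clearest case. KO_1 had 80.01% at day 0, 84.1% at day 1 in control medium, 5.13% at day 1 under restriction, 95.5% at day 5 in control medium and 92.7% at day 5 under restriction. WT libraries had 89.3% and 78.3%, 76.2% and 88.2%, 70.6% and 69.6%, 86.6% and 86.8%, and 82.4% and 84.5% in the same order. KO_2 was at 0 in all 5 conditions. So the KO_1 value lay inside the WT range at day 0 and in the day 1 control library, above it in both media at day 5, and far below it in the restricted library of day 1.

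Zfp622 in KO_1 had 42.3% at day 0, 20.1% at day 1 in control medium, 0% at day 1 under restriction, 86.3% in the day 5 control library and 83.4% in the restricted one. Zfp207 and Zfp131 had 44.7% and 46.0% at day 0. In control medium at day 5 they had 89.6% and 83.0%. Zfp706 had 31.3% and 79.9%. At a like WT level other members were far lower in KO_1, such as Zfp335 with 4.87% at day 0 and 44.3% at day 5, and Zfp687 with 1.74% and 31.4%. High WT cover therefore went with very different cover in KO_1, as a description of single libraries.

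**Figure D5:**
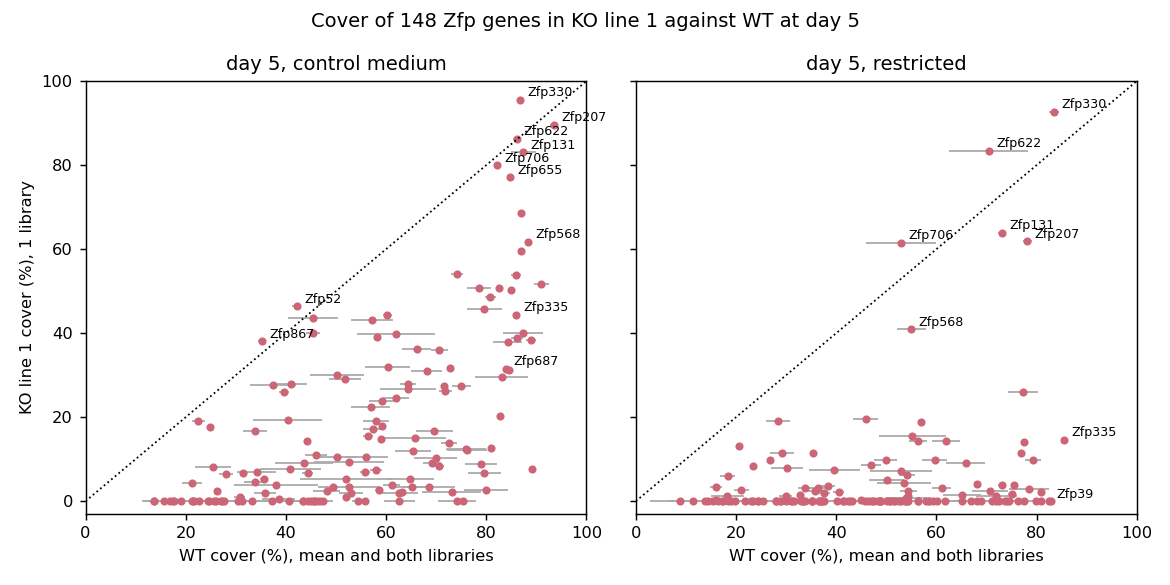
Percent of the gene body inside peaks in the single KO_1 library (vertical) against WT (horizontal; point at the mean, bar between the 2 libraries) for 148 Zfp genes at day 5 in control (left) and restricted medium (right). The dotted line marks equal cover; most points lie under it, and Zfp330 and Zfp622 stay near or above it in both media.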

How the data were processed

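H3K36me3 ChIP-seq of C2C12 cells was analysed from 20 deposited peak lists, 1 per library. Per the labels' protocols, chromatin was sonicated, Drosophila chromatin was added as a spike-in and single-end reads were made. The build GRCm38 is given in the submitters' processing notes; the peak caller, its control and its filters are not given in the sources used here. The fold enrichment ratio of each peak and its −log10 p and −log10 q are the authors' deposited values, and they were used only to filter or rank peaks within a list. The score column, also deposited by the authors, and the input were not used, and no scaling by the spike-in was added here. Whether it entered the authors' calls is not given in the sources used here. Depth is unknown, so no counting interval is given.

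Touching peaks were merged, and cover was computed over RefSeq gene bodies of GRCm38.p6. Cover in points was tested with limma 3.58.1 (R 4.3.3, trend and robust options) on the 8 WT libraries of days 1 and 5 in 4 groups, for protein-coding RefSeq genes from 2 kb in length with a mean cover of at least 5%, with a Benjamini-Hochberg threshold of 0.05. The fit was tested on simulated data. KO lines were compared by value only. Members, lists and tests were chosen with earlier results of these data known. Named genes are those called, without overlap between groups, with the greatest differences (up to 6 per direction), the highest and lowest 5 in WT, the highest 5 in KO_1, those nearest the threshold, genes of the clusters with most members, and a list of genes of known role. Alternatives were peaks with a −log10 q of at least 3, lists of equal length, filled gaps of 1 kb, centring, no filter, other sets of libraries, a replicate block and each library left out.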

Additional observations from a re-analysis of the deposited data

How the results depend on the processing

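Peak lists give extent and not amount, replicates are 2 per group, depth is unknown, and a library left out leaves an arm of 1 that is assumed to vary like the others. For restriction at day 1, as deposited 2 members higher and 37 lower, the counts were 7 and 14 with lists of equal length and 63 and 6 with centring. Lower calls were 24 when peaks were limited to a −log10 q from 3 up (the q limit below) and 24 with only the compared libraries, and 1 was higher without the filter, with 10 libraries, with only the compared libraries and with the replicate block. Leaving out 1 library gave 1 to 3 higher and 16 to 38 lower, with 20 lower without the second control library of day 1 and 16 without the second restricted one. For restriction at day 5, as deposited 6 higher and 42 lower, the counts were 13 and 18 with the q limit, 22 and 16 with lists of equal length and 75 and 5 with centring, and 3 were higher with 10 libraries. Leaving out 1 library gave 1 to 7 higher and 22 to 47 lower, with 22 lower without the first control library of day 5 and 26 without the first restricted one. From day 1 to day 5 in control medium, as deposited 20 higher and 5 lower, 7 were higher with the q limit, and 6 were higher and 12 lower with lists of equal length. Lower calls were 9 with centring, and 3 with filled gaps, with 10 libraries and with only the compared libraries. Leaving out 1 library gave 8 to 25 higher and 1 to 5 lower, with 9 higher without the first control library of day 1 and 8 without that of day 5, and 1 lower without the second control library of day 5. The difference between days gave 3 calls with the q limit, 6 with lists of equal length, 1 with filled gaps, 4 with centring and 0 to 3 with a library left out. Zfp672 reversed in lists of equal length, to 19.2 points under restriction at day 5 and -10.5 points from day 1 to day 5. The share of the summed segment cover that lay in the 3′ segment was 46.4%, and 51.2% with the q limit. The causes of these changes were not tested. Differences between the replicates of a WT group were nearly uncorrelated across genes with those of other groups (correlations of -0.018 to 0.055). These correlations are blind to a shift shared by all genes. They therefore cannot tell whether same-numbered libraries were handled together. With the replicate block the counts were 1 and 34 at day 1, 5 and 40 at day 5, 20 and 4 between days, and 27 of 31 named calls remained.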
